A study of Oryza sativa Indica Group with 11 samples.

Results

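The homeobox, YABBY and FON gene families hold many of the transcription factors and receptors that run the shoot meristem and the first steps of leaf growth. Genes were taken by name, where a symbol or synonym in the array's gene annotation was OSH, HOS, HOX, WOX, YAB, KNOX, KNAT, FON or ROC followed by a number, and 64 genes matched. Of these, 57 had a probe set assigned to that gene alone, out of 17905 genes with such a probe set, and the rule that picks them uses names alone. The 57 genes are 5 class I and 4 class II KNOX genes, 12, 8, 5 and 8 genes of HD-Zip classes I, II, III and IV, 7 WOX genes, 6 YABBY genes, FON1, and the homeobox gene HOX1A. The matched genes OSH10, OSH15, HOX3, ROC9, WOX5, YAB3 and FON2 were not analysed here. Each gene is given by 1 probe set, the one with the highest mean intensity over all arrays, and 11 of the 57 have other probe sets as well.

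RNA came from the crown and growing point of rice plants (Oryza sativa Indica Group), with several plants dissected for each sample and 1 Affymetrix array for each. The 11 arrays are 3 of salt-stressed IR29, 2 of control IR29, 3 of salt-stressed FL478 and 3 of control FL478. IR29 is a salt-sensitive variety, and FL478 is a salt-tolerant line bred from IR29 and the landrace Pokkali, so the lines share part of their genome. Labels used here name neither the dose and duration of salt nor the age of the plants. The series describes its samples as biological replicates.

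Class I KNOX proteins keep cells of the shoot meristem undetermined, and class II KNOX proteins act mostly in tissues that differentiate. HD-Zip class I and II proteins respond to drought, abscisic acid, light and growth hormones. HD-Zip class III proteins set the upper side of leaves and pattern the vasculature, and class IV proteins act in the epidermis. WOX proteins maintain stem cells and start organs such as crown roots, YABBY proteins act in leaves and other lateral organs, and the FON proteins limit meristem size.

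The deposited trimmed mean was 500.1 on every array, and the median intensity ran between 48.3 and 73.2. Intensities are the authors' linear signals. Log2 differences are on the scale of log2(intensity + 16) after quantile normalization. Errors are standard errors from a limma fit of all 57194 probe sets, and a gene was called at a Benjamini-Hochberg adjusted p under 0.05 over all of them. Every member but 5 had a mean intensity of at least 50. The dim members were WOX4, WOX6, WOX7, WOX10 and YAB7, and their differences depend on the value added before the log. In bulk tissue, fewer cells of a type and less RNA per cell cannot be told apart.

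The tissue label was set against its markers. The summed intensity of the growing point genes OSH1, OSH6, OSH43 and OSH71 was 4400 to 5886 in salt-stressed IR29, 5161 to 6220 in control IR29, 5738 to 6885 in salt-stressed FL478 and 6352 to 9649 in control FL478. The summed intensity of 10 genes matched by root gene names lay between 1546 and 2375 on every array. The brightest of them on every array, CRL1B (log2 9.519 to 10.013), is also HK4 of the cytokinin list, so the sum is not root signal alone. The sum of 15 leaf photosynthesis genes lay between 70842 and 136220. The growing point genes, which are members here, therefore had signal on every array, and leaf transcripts were present in every group. The mean log2 level of the leaf genes was lowest on replicate 2 in all 4 groups. In salt-stressed FL478 the margin was small (11.22 against 11.31 on replicate 1). The part of this pattern in the values below was not tested. No value in the deposited table was 0, and the lowest was 0.1.

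**Figure D1:**
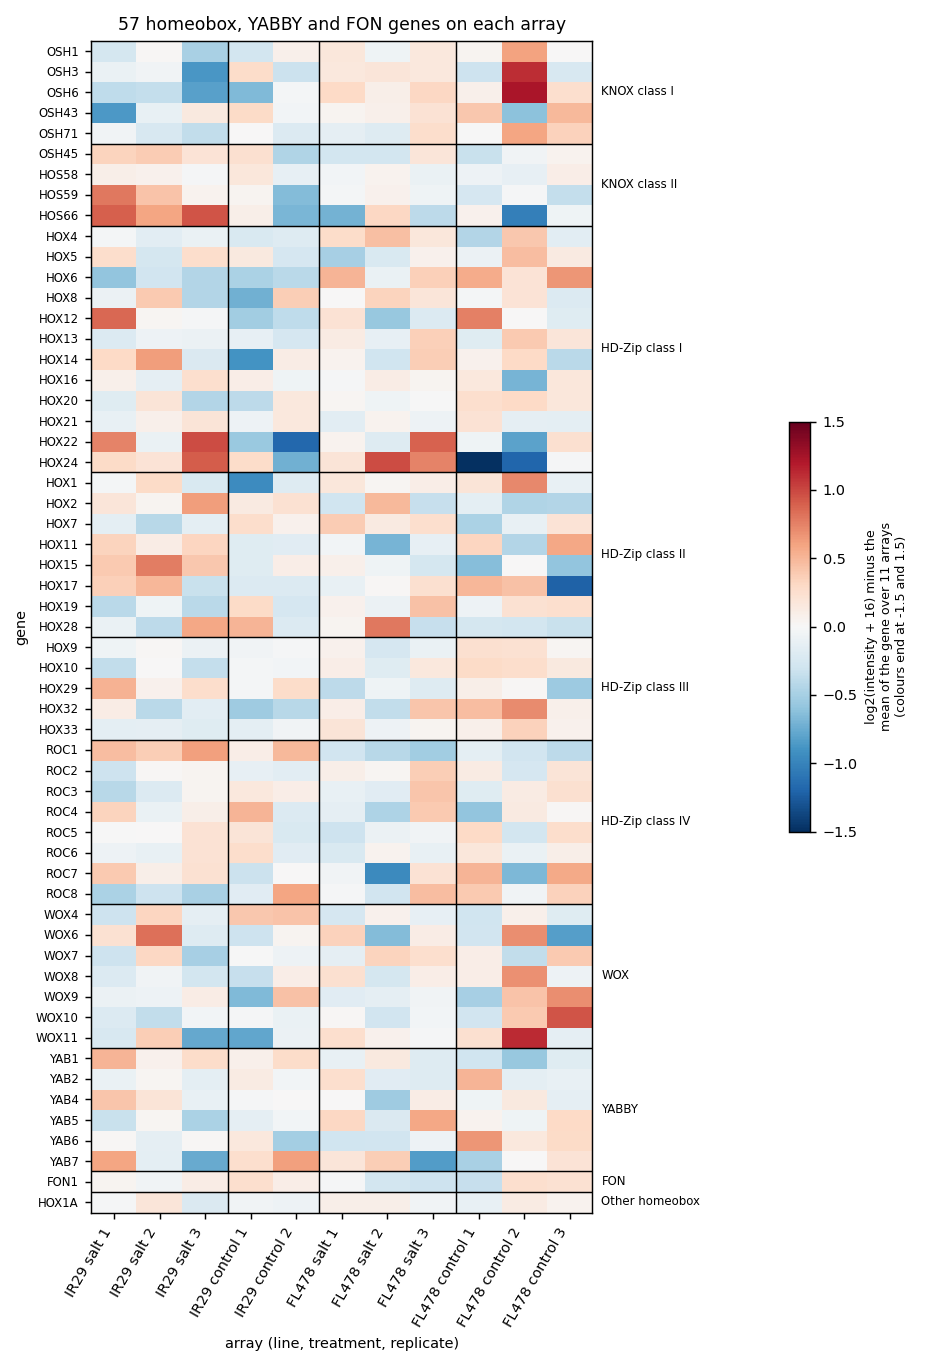
Each row is 1 of the 57 genes, grouped by family, and each column is 1 array, from salt-stressed IR29 through control IR29 and salt-stressed FL478 to control FL478. Colour gives log2(intensity + 16) minus the mean of the same gene over the 11 arrays, with colours ending at -1.5 and 1.5. ROC1 is red on all IR29 arrays and HOX6 blue on all of them, and control FL478 replicate 2 stands out for OSH3, OSH6 and WOX11.

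The line comparison asked which of these genes differ between the salt-sensitive and the salt-tolerant genotype. As the mean of both conditions, 2 of the 57 were called, against 2.84% of all probe sets. ROC1 was higher in IR29 and HOX6 was lower. Without salt-stressed FL478 replicate 2, 5 were called, the others being YAB1, HOX2 and HOX32. Unadjusted p was under 0.05 for 14 of the 57, 5 of them higher and 9 lower in IR29, against 6.52% and 6.37% of all probe sets. Members are the brightest probe set of each gene. Among all 17905 genes taken in this way, it was under 0.05 for 1621 higher and 1737 lower. Of those 17905, 337 higher and 420 lower were called. The median log2 difference of the 57 was -0.0803, against -0.00382 over all probe sets, with 25 genes above 0 and 32 below.

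ROC1 encodes an HD-Zip class IV protein whose transcript is known from the outermost cell layer of rice embryos and shoots. Its intensity was 3309, 3113 and 3721 in salt-stressed IR29 and 2587 and 3450 in control IR29. It was 1986, 1811 and 1677 in salt-stressed FL478 and 2194, 1989 and 1810 in control FL478. Every IR29 array lay above every FL478 array, under both treatments. The mean line difference was 0.73 ± 0.0957 on the log2 scale, a 1.66-fold higher level in IR29 (limma, adjusted p = 0.000882). In salt-stressed plants alone the difference was 0.89 ± 0.128, or 1.85-fold (adjusted p = 0.00274), and ROC1 was the 1 member called there, against 1.73% of all probe sets. In control plants alone it was 0.57 ± 0.143 with an adjusted p of 0.123. The salt response of ROC1 was 0.19 in IR29 and -0.13 in FL478, and neither was called.

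HOX6 encodes an HD-Zip class I protein. Its intensity was 224, 273 and 248 in salt-stressed IR29 and 237 in both control IR29 arrays. It was 481, 332 and 447 in salt-stressed FL478 and 501, 386 and 541 in control FL478. The IR29 arrays were all below the FL478 arrays, and the salt and control arrays overlapped within FL478. The mean line difference was -0.81 ± 0.15, a 1.75-fold lower level in IR29 (limma, adjusted p = 0.0104). Taken by condition, the difference was -0.70 ± 0.199 in salt-stressed plants (adjusted p = 0.139) and -0.92 ± 0.223 in control plants (adjusted p = 0.106).

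In control plants none of the 57 was called by limma, against 0.815% of all probe sets, while 3 higher and 6 lower had an unadjusted p under 0.05, against 4.48% and 4.5%. In salt-stressed plants 4 were higher and 4 lower at that level, against 5.86% and 5.59%. Array values of the lines did not overlap for 6 genes higher and 9 lower in control IR29, against 11.5% and 11.1% of all probe sets. In salt-stressed plants this held for 7 higher and 7 lower, against 8.65% and 9.47%. Over all arrays of both treatments, ROC1 lay wholly above and OSH6 and HOX6 wholly below, against 1.62% and 1.76% of all probe sets.

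**Figure D2:**
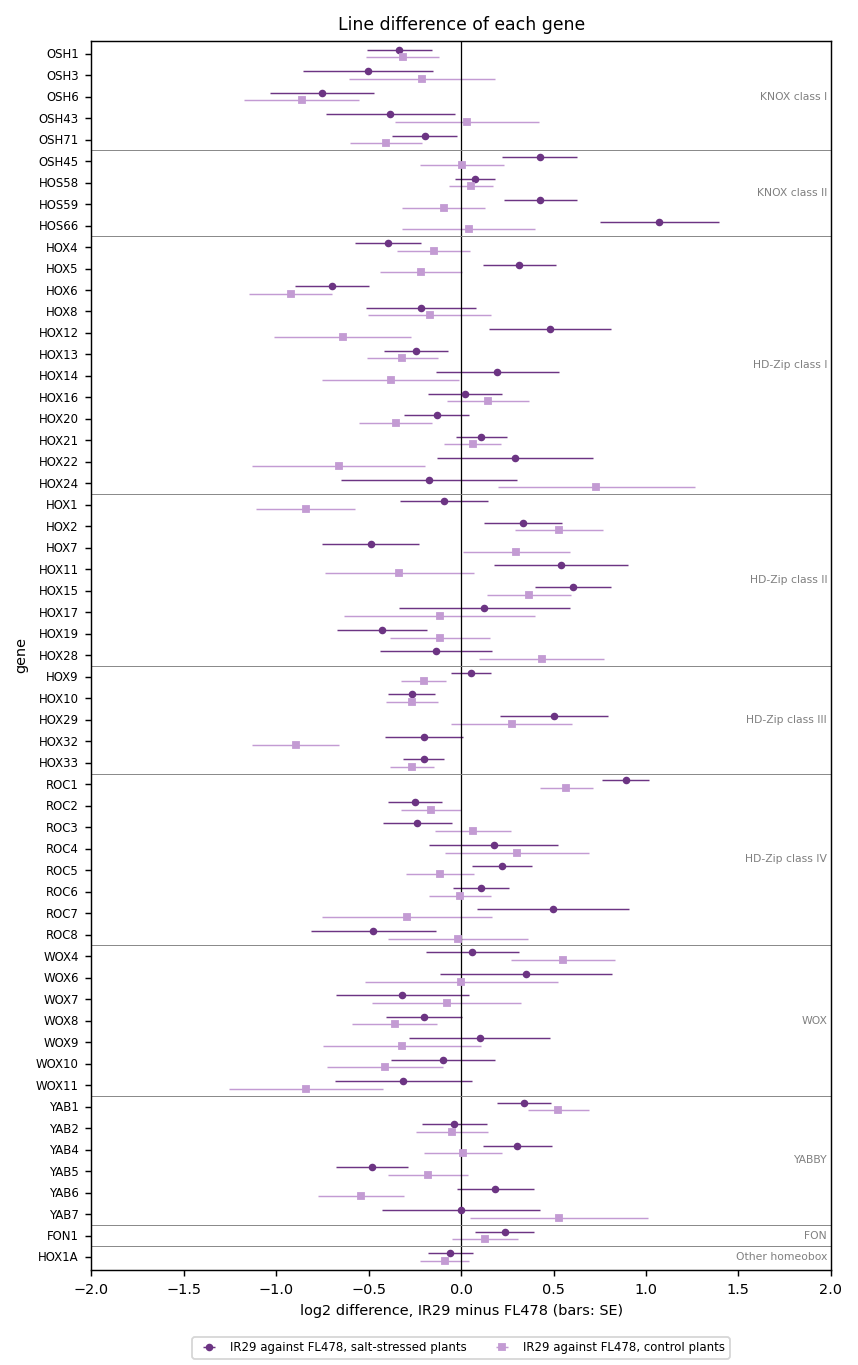
Points give the log2 difference of IR29 minus FL478 for each of the 57 genes in salt-stressed plants (dark circles) and control plants (light squares), with bars of 1 standard error, grouped by family. ROC1 lies at 0.89 in salt-stressed and 0.57 in control plants, HOX6 at -0.70 and -0.92, and most other genes within 0.5 of the line at 0.

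All 5 class I KNOX genes had a negative mean line difference, with values between -0.81 and -0.18 and a median of -0.325. None of them was called, and 3 had an unadjusted p under 0.05. OSH6, a KNOX gene expressed around the meristem, had intensities of 393, 386 and 274 in salt-stressed IR29 and 301 and 478 in control IR29. They were 606, 546 and 629 in salt-stressed FL478 and 520, 1179 and 592 in control FL478. No IR29 array reached an FL478 array, and the 1179 of control FL478 replicate 2 lay far above the other values. The mean difference was -0.81 ± 0.21 (adjusted p = 0.0697), and without that array it was -0.63.

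OSH1 is the rice gene that marks undetermined cells of the shoot meristem. It read 3703, 4534 and 3200 in salt-stressed IR29 and 3713 and 4759 in control IR29. In FL478 it read 5053, 4145 and 4878 under salt and 4656, 6873 and 4497 in controls. The groups overlapped, and control FL478 replicate 2 was again the highest array. The mean line difference was -0.32 ± 0.133 (adjusted p = 0.310). The probe set of OSH1 has the array maker's suffix for possible cross-hybridisation, and a second probe set gave -0.24. OSH71 had a line difference of -0.30 ± 0.131, with 769 to 970 in salt-stressed IR29, 861 and 968 in control IR29, 888 to 1205 in salt-stressed FL478 and 1001 to 1513 in control FL478. In the RefSeq gene order, OSH1 and OSH3 lie on either side of 1 other gene.

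Class II KNOX genes had line differences between 0.0634 and 0.556. HOS58 read 7181, 7053 and 6742 in salt-stressed IR29, 7723 and 6225 in control IR29, 6527, 6582 and 5971 in salt-stressed FL478 and 6431, 6180 and 7054 in control FL478. Its groups overlapped and its line difference was 0.06. HOS66 had a difference of 1.07 ± 0.322 in salt-stressed plants (adjusted p = 0.164) and 0.04 in control plants. Its arrays are given with the salt response.

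In HD-Zip class II, 5 of 8 genes lay above 0 in the line comparison and none was called. HOX2 read 2136, 1952 and 2910 in salt-stressed IR29 and 2029 and 2247 in control IR29, against 1528, 2599 and 1494 in salt-stressed FL478 and 1709, 1370 and 1375 in control FL478. All IR29 arrays lay above all FL478 arrays except salt-stressed FL478 replicate 2, and the difference was 0.43 ± 0.16 (adjusted p = 0.247). HOX15 had a difference of 0.49 ± 0.154 (adjusted p = 0.153). HOX28, a gene known from shoot gravitropism and tiller angle, had a difference of 0.15. HOX28 and HOX2 are direct neighbours in the RefSeq gene order.

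Of the 5 HD-Zip class III genes, 4 lay below 0 and none was called. HOX32, known from leaf rolling, read 1614, 1143 and 1322 in salt-stressed IR29 and 991 and 1114 in control IR29. It read 1604, 1178 and 1990 in salt-stressed FL478 and 2085, 2476 and 1566 in control FL478. The control groups did not overlap, whereas the salt-stressed groups did. The difference was -0.55 ± 0.158 as the mean of conditions (adjusted p = 0.111) and -0.90 ± 0.236 in control plants (adjusted p = 0.148). HOX10 and HOX33 had line differences of -0.27 ± 0.0945 and -0.23 ± 0.0815, with adjusted p of 0.220 and 0.209 from limma.

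In the other families no gene but ROC1 and HOX6 was called as the mean line difference. The epidermal HD-Zip class IV genes other than ROC1 had no call. ROC5, which controls bulliform cells and leaf rolling, differed by 0.05 and ROC2 by -0.21 ± 0.109. HOX16 read 11781 to 15330 in salt-stressed IR29 and 12425 and 14764 in control IR29, against 12667 to 12714 in salt-stressed FL478 and 8021 to 14734 in control FL478, and differed by 0.08. HOX5 differed by 0.05. WOX8 differed by -0.28 ± 0.154 and WOX11, an activator of crown root emergence, by -0.58 ± 0.279. WOX11 read 82 to 202 in salt-stressed IR29, 99 and 133 in control IR29, 162 to 183 in salt-stressed FL478 and 147 to 348 in control FL478.

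Of the YABBY genes, YAB1, which takes part in feedback control of gibberellin synthesis, read 3953, 2885 and 3365 in salt-stressed IR29 and 2913 and 3423 in control IR29. It read 2579, 3002 and 2399 in salt-stressed FL478 and 2258, 1887 and 2405 in control FL478. Salt-stressed FL478 replicate 2 was the 1 FL478 array within the IR29 range. The line difference was 0.43 ± 0.11 (adjusted p = 0.0638), while a second and dim probe set of YAB1 gave -0.45. YAB2 differed by -0.04. FON1, a CLAVATA1-like receptor kinase, differed by 0.18, and HOX1A by -0.07.

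The salt comparison asked which of these genes respond to salt in the growing point. None of the 57 was called by limma as the mean of both lines, against 0.0332% of all probe sets. None was called in IR29 or in FL478 either, against 0.00525% and 0.00874%. With so few calls on the whole array, a count of 0 among 57 genes is near the background. Unadjusted p was under 0.05 for 5 genes higher and 1 lower as the mean of both lines, against 3.75% and 3.81% of all probe sets. Among all 17905 genes at 1 probe set each, it was under 0.05 for 938 higher and 803 lower. In IR29 unadjusted p was under 0.05 for 4 members higher and 0 lower, against 3.61% and 3.76% of all probe sets. In FL478 it held for 1 higher and 2 lower, against 2.8% and 2.61%. The median log2 salt difference of the 57 was 0.0508 in IR29 and -0.0251 in FL478, against -0.0108 and 0.00359 over all probe sets.

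The precision of these values limits what could be seen. The 95% interval of the mean salt difference lay within 1 log2 unit of 0 for 52 of the 57 genes, and within IR29 alone for 36. On the normalized log2 scale, salt and control arrays did not overlap in IR29 for 9 genes higher and 4 lower, against 10.8% and 12.7% of all probe sets. In FL478 this held for HOX24, which was higher, and for HOX20 and YAB6, which were lower, against 5.49% and 4.83%. In the deposited linear intensities HOX10 was also lower without overlap in FL478. There the IR29 counts were 10 higher and 6 lower, so the IR29 set also depends on normalization. On that scale the counts were made for members only.

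**Figure D3:**
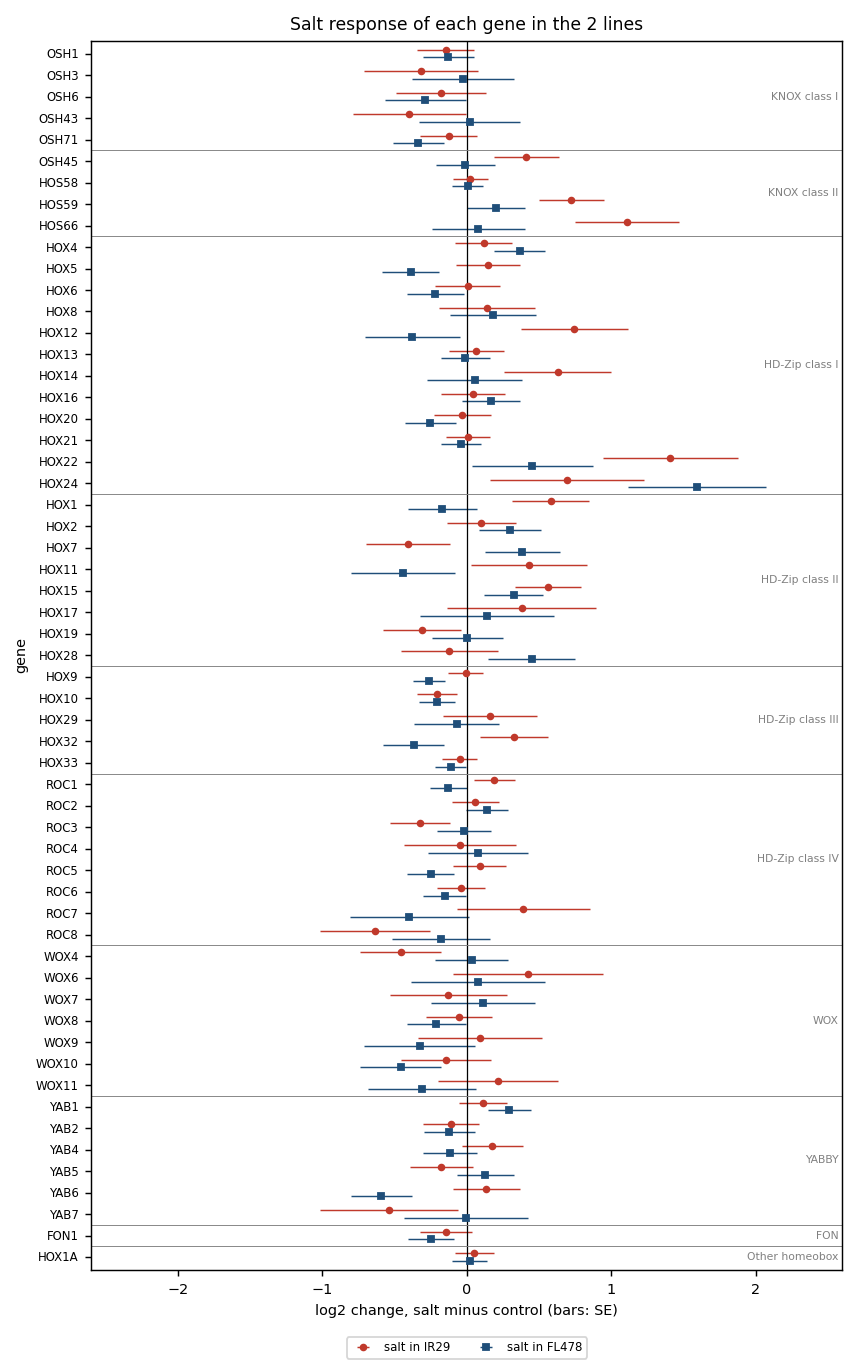
Points give the log2 difference of salt minus control for each of the 57 genes in IR29 and in FL478, with bars of 1 standard error, grouped by family. HOX22 lies at 1.41 and HOS66 at 1.11 in IR29, HOX24 lies at 1.60 in FL478, and the class I KNOX genes lie between -0.40 and 0.02 in both lines.

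All 5 class I KNOX genes had a negative salt difference as the mean of both lines, between -0.233 and -0.138, and none had an unadjusted p under 0.05. OSH1 had a salt difference of -0.15 in IR29 and -0.13 in FL478. Their mean was -0.14 ± 0.133, with a 95% interval of -0.427 to 0.151. OSH71 had -0.23 ± 0.131. The second OSH1 probe set gave -0.02, and a second and dim probe set of OSH43 gave -0.005. On control FL478 replicate 2 OSH3 was at log2 9.506, against 8.089 and 8.161 on the other FL478 controls and 8.549 to 8.579 under salt. Its FL478 difference of -0.03 was therefore negative through that array alone. OSH1, OSH6 and OSH71 were also highest there among the FL478 controls, and OSH43 was lowest. Over the alternative settings the mean salt difference of OSH1 lay between -0.23 and -0.04.

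Class II KNOX genes all had a positive salt difference in IR29, with a median of 0.567, and a median of 0.0416 in FL478. HOS66, related to the Arabidopsis secondary wall regulator KNAT7, read 1114, 898 and 1130 in salt-stressed IR29, against 600 and 344 in control IR29. In FL478 it read 347, 750 and 452 under salt, against 614, 274 and 558 in controls. The IR29 arrays separated by treatment and the FL478 arrays did not. The salt difference was 1.11 ± 0.36 in IR29 (adjusted p = 0.464) and 0.08 in FL478, and the difference between them was 1.03 ± 0.482 (adjusted p = 0.916). Without control IR29 replicate 2 these values of HOS66 were 0.72 in IR29 and 0.64 for the difference.

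HOS59 read 3035, 2356 and 1812 in salt-stressed IR29, against 1760 and 1116 in control IR29. It read 1728, 1833 and 1679 in salt-stressed FL478, against 1493, 1739 and 1356 in control FL478. Salt-stressed IR29 lay above its control on every array, by a small margin for replicate 3, and the FL478 groups overlapped. The salt difference was 0.72 ± 0.224 in IR29 (adjusted p = 0.430) and 0.20 ± 0.2 in FL478. Without control IR29 replicate 2 the IR29 value of HOS59 was 0.38 and the mean of lines 0.29, against 0.46 with all arrays. HOS58 had 0.02 and 0.01.

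Marker genes of other cell types were summed for the same arrays. The summed intensity of 10 xylem and secondary wall genes was 13282 to 17004 in salt-stressed IR29 and 8499 to 9924 in control IR29, and 10 of 10 were above 0. The same sum was 11645 to 13161 in salt-stressed FL478 and 11204 to 11426 in control FL478, with 6 of 10 above 0. For 49 genes of dividing cells it was 73037 to 85340 in salt-stressed IR29 and 84952 to 104469 in control IR29, with 39 of 49 below 0. None of either list was called by limma in IR29, against 0.00525% of all probe sets. Unadjusted p was under 0.05 for 6 xylem genes, all higher, and 14 dividing-cell genes, all lower, against 3.61% and 3.76%. Of all probe sets, 48.7% were above 0 in IR29 and 50.6% in FL478. The part of these marker genes in the values of HOS66, HOS59 and the KNOX genes was not tested. The log2 ratio of 3' to 5' signal of the actin control was 0.658 to 0.786 in salt-stressed IR29 and 0.481 and 0.504 in control IR29. For cyclophilin it was 0.998 to 1.164 against 0.707 and 0.907. For GAPDH the groups overlapped, at 0.335 to 0.561 against 0.281 and 0.557. In FL478 the treatments overlapped for each of these controls. The part of these ratios was not tested either.

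HOX22 and HOX24 are closely related HD-Zip class I genes known to respond to drought and abscisic acid in rice. HOX22 read 171, 83.7 and 207 in salt-stressed IR29, against 74.6 and 28.6 in control IR29. It read 101, 90.3 and 200.4 in salt-stressed FL478, against 79.5, 48.3 and 125 in control FL478. The IR29 groups did not overlap, and the FL478 groups did. The salt difference was 1.41 ± 0.469 in IR29 (adjusted p = 0.490), 0.45 ± 0.42 in FL478 and 0.93 ± 0.315 as the mean (adjusted p = 0.489).

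HOX24 read 44.6, 45.0 and 86.4 in salt-stressed IR29, against 64 and 15.7 in control IR29. It read 50.1, 103 and 87.8 in salt-stressed FL478, against 1.2, 8.4 and 46.5 in control FL478. Here the FL478 groups did not overlap, by a narrow margin, and the IR29 groups did. The salt difference was 0.69 ± 0.534 in IR29, 1.60 ± 0.478 in FL478 (adjusted p = 0.848) and 1.14 ± 0.358 as the mean (adjusted p = 0.444). On 3 of its arrays HOX24 lay under the added value of 16, and its FL478 difference was between 0.78 and 2.84 over the alternative settings.

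**Figure D4:**
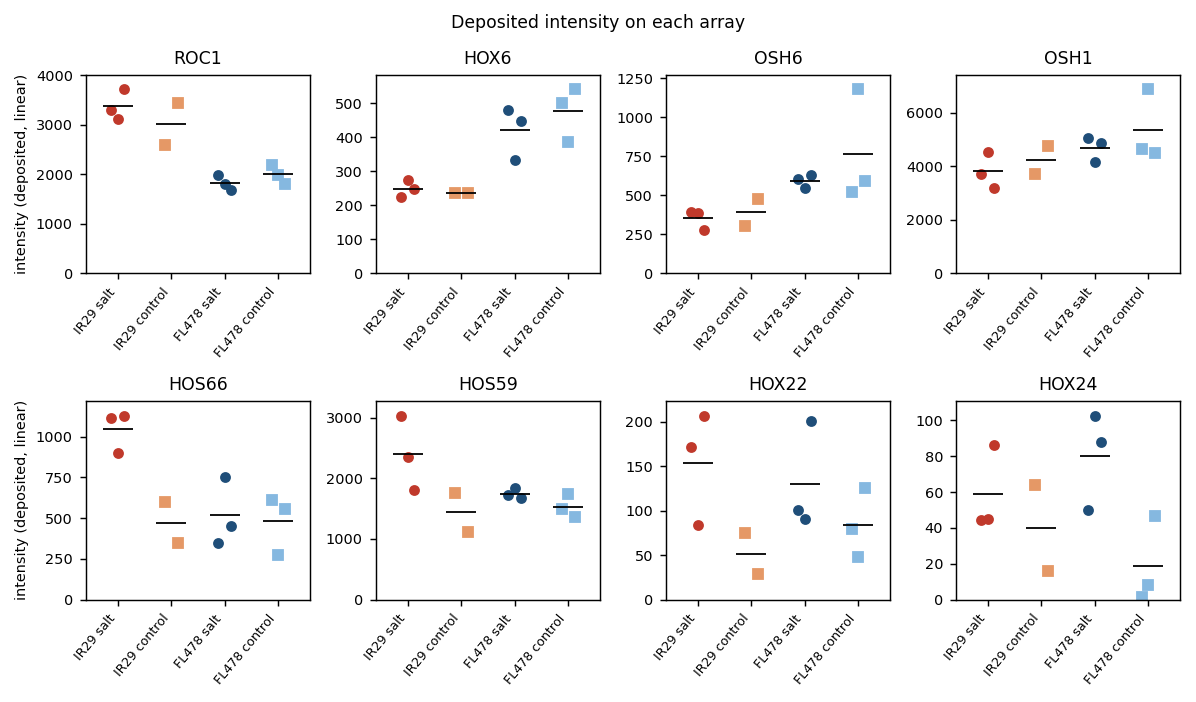
Each panel shows 1 gene, with the deposited linear intensity on every array as points and the group mean as a line, for salt-stressed IR29, control IR29, salt-stressed FL478 and control FL478. The lines separate for ROC1, HOX6 and OSH6, treatments separate within IR29 for HOS66, HOS59 and HOX22, and all HOX24 points lie under 110.

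HOX15, of HD-Zip class II, read 553, 699 and 540 in salt-stressed IR29, against 342 and 424 in control IR29. It read 420, 405 and 341 in salt-stressed FL478, against 240, 399.8 and 266 in control FL478. Treatments separated in IR29 and overlapped in FL478. The salt difference was 0.44 ± 0.154 as the mean of lines (adjusted p = 0.510).

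The genes with the most negative test statistics for salt were HOX10, OSH71, HOX9 and FON1. HOX10 read 4025, 5249 and 4081 in salt-stressed IR29, against 5206 and 5112 in control IR29, and 5620, 4491 and 5648 in salt-stressed FL478, against 6455, 6317 and 5733 in control FL478. Its deposited intensities overlapped in IR29 and not in FL478, and its mean salt difference was -0.21 ± 0.0945 (adjusted p = 0.660). A second HOX10 probe set gave -0.47 ± 0.106 (adjusted p = 0.228). HOX9 had -0.14 ± 0.0815 and FON1 -0.20 ± 0.12.

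The difference between the salt responses asked whether the lines respond unequally. None of the 57 was called by limma, and 0% of all probe sets were. Unadjusted p was under 0.05 for 3 genes with the larger value in IR29 and 0 with the larger value in FL478, against 2.7% and 2.65% of all probe sets. These were HOX12, HOX32 and YAB6. HOX12, a regulator of panicle exsertion through gibberellin breakdown, read 333, 169 and 169 in salt-stressed IR29, against 127 and 114 in control IR29. It read 194, 119 and 154 in salt-stressed FL478, against 286, 165 and 154 in control FL478. Salt separated the IR29 arrays upward, and the FL478 arrays overlapped. The difference of responses was 1.12 ± 0.496 (adjusted p = 0.916).

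YAB6 read 322, 278 and 311 in salt-stressed IR29, against 337 and 199.8 in control IR29. It read 240, 266 and 302 in salt-stressed FL478, against 494, 338 and 379 in control FL478. The FL478 arrays separated downward and the IR29 arrays overlapped. The salt difference was 0.14 in IR29 and -0.59 ± 0.21 in FL478, which gives a difference of responses of 0.73 ± 0.314. Without control IR29 replicate 2 that difference was 0.39, and without control IR29 replicate 1 it was 1.07. For HOX32 the responses were 0.33 and -0.37, with a difference of 0.70 ± 0.317. At the other end lay HOX7 with -0.79 ± 0.39, HOX28 with -0.57 ± 0.452 and the dim gene WOX4 with -0.49 ± 0.377. Over the alternative settings HOX7 lay between -0.96 and -0.28, HOX28 between -0.93 and -0.21 and WOX4 between -0.998 and -0.19. The value nearest 0 came with the mean of all HOX7 probe sets, without control IR29 replicate 1 for HOX28, and with a pseudocount of 64 for WOX4. The second HOX7 probe set alone, of similar mean intensity (125.8 against 128.7), gave 0.23, which is the opposite sign. The 95% interval of the difference lay within 1 log2 unit of 0 for 26 of the 57 genes.

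Other genes of the same pathways were described from name lists. Of 24 meristem and leaf-initiation genes, none was called by limma in the line or the salt comparison. Over all probe sets 2.84% and 0.0332% were called in them, as the mean of conditions and of lines. Of the 24, 5 and 3 had an unadjusted p under 0.05 in these comparisons, against 12.9% and 7.57% of all probe sets. In the line comparison 18 of the 24 lay below 0, with a median of -0.175 against -0.00382 over all probe sets. Of all probe sets, 49.4% lay above 0 there. In the salt comparison 13 of the 24 lay below 0, with a median of -0.0441 against -0.00418 over all probe sets, of which 49.2% lay above 0. DL, a YABBY gene of the midrib and carpel, had a salt difference of -0.95 ± 0.226 in IR29 and -0.40 ± 0.202 in FL478, with -0.68 ± 0.152 as the mean (adjusted p = 0.225). KNOX proteins raise cytokinin and lower gibberellin. None of 32 cytokinin genes was called by limma in the line or salt comparison. Unadjusted p was under 0.05 for 3 and 1 of them, against the same 12.9% and 7.57% of all probe sets. Of 18 genes matched by gibberellin gene names, 1 was called by limma in the line comparison, against 2.84% of all probe sets. Whether each CPS, KS and KO gene among the 18 acts in gibberellin synthesis was not checked. The called gene was D35, the ent-kaurene oxidase of gibberellin synthesis. It was lower in IR29, with a log2 difference of -1.26 ± 0.149 (limma, adjusted p = 0.000382). As for OSH1, its probe set has the suffix for possible cross-hybridisation. D35 is no homeobox gene and was not called for salt.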

How the data were processed

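The deposited table holds 1 linear signal intensity per probe set and array, made by the authors with GCOS 1.2 per the submitters' processing notes. Its scanner settings and expression algorithm were not given in the sources used here, and no detection calls were used. Array signal depends on transcript amount and on the match of probe to transcript, which can differ between lines. The 187 control probe sets were left out. Intensities plus 16 were log2 transformed and, because array medians differed by 0.472, above the limit of 0.1, quantile normalized. Each of 57194 probe sets was fitted with limma 3.58.1 (R 4.3.3) as 4 group means with a trended variance prior and 7 residual degrees of freedom. Tests of 7 contrasts were two-sided, adjusted by Benjamini-Hochberg over all probe sets and called under 0.05. The code was tested on simulated data. Groups of 2 or 3 arrays limit precision.

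Genes were joined through the array's annotation and the RefSeq gene table, used for names and gene order only. Values are given for called genes, OSH1, the 2 brightest genes per family, the 4 highest and 4 lowest test statistics for salt and the 3 at each end for the difference of responses. OSH6, HOS66, HOX20, D35 and DL were added after their values were seen. Members and lists were chosen with earlier results of these data known. Genes recognised as name collisions were left out of lists, GIF1 and CPS after values had been seen. CRL1B, which is also HK4, stayed in the root list. Alternatives were pseudocounts of 1 and 64, a filter at a mean intensity of 50, no quantile normalization, no variance trend, array weights, a replicate block, the mean of a gene's probe sets and each array left out. Tables and plots used Python 3.11.15, pandas 2.3.3 and matplotlib 3.10.9.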

Additional observations from a re-analysis of the deposited data

How the results depend on the processing

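Under the 19 alternatives, no member was called for salt as the mean of both lines, in IR29, in FL478, in the difference of responses, or between lines in control plants. ROC1 (0.63 to 0.82, adjusted p 0.000643 to 0.0141) and HOX6 (-0.90 to -0.71, adjusted p 0.00392 to 0.0452) were called as the mean line difference in all 19. The number of members called there was 4 with only probe sets of mean intensity of at least 50, and 2 to 5 with each array left out, with 5 without FL478 salt replicate 2. In salt-stressed plants it was 3 with array weights and 1 to 2 with each array left out, with 2 without FL478 salt replicate 2, where HOX6 was added (adjusted p = 0.047). The cause was not tested. The salt differences of HOX24, HOX22, HOS59, HOX15, HOX10, OSH71, HOX9, FON1 and OSH1 as the mean of lines kept their sign under these alternatives, whereas the line difference of YAB1 was -0.01 with the mean of its probe sets. With the replicate number as a block, 3 members were called as the mean line difference, including OSH6 (adjusted p = 0.0442), and 0 for salt, where 40 probe sets were called against 19 as the mean of lines and 14 against 3 in IR29. No label says that a number marks a shared batch. Deviations from the group means correlated between -0.0509 and 0.132 over 15 same-numbered pairs of arrays (2 over 0.1). Over 30 other pairs they correlated between -0.153 and 0.153. Deviations within a group of 2 or 3 arrays sum to 0, so these correlations are not independent and cannot decide on pairing by number. The leaf gene mean was lowest on replicate 2 in all 4 groups, by a small margin in salt-stressed FL478 (11.22 against 11.31 on replicate 1). There, 6 of the 15 leaf genes were lowest on replicate 2 and 6 on replicate 1. A shared source of some same-numbered arrays was not settled. WOX4 was too dim for the filter and had no value there.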
